A study of Xiphophorus maculatus with 24 samples.

Results

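*dbpb*, *nfil3-5* and a partner gene of *nfil3-5*, all of the D-box arm of the circadian clock, were followed through the day in skin of the platyfish *Xiphophorus maculatus*. Their identifiers are ENSXMAG00000012054 (*dbpb*), ENSXMAG00000005127 (*nfil3-5*) and ENSXMAG00000019530, the Ohnolog partner of *nfil3-5*, which carries no symbol and is called here by its identifier. They were taken by identifier as 3 of the 24209 rows of the skin count table, by a rule that sets no threshold on a measured value, although earlier results of these data were known when they were chosen. Ohnologs are gene copies kept from a whole-genome duplication. By the methods of the study, all fish were males of the inbred line Jp 163 A, untreated, kept under 13 h of light and 11 h of dark and fed on a fixed schedule, and each library was made from the skin of 1 fish. Those methods give an age of 12 months only, which does not match the 24 months on the labels of the first collection. The first collection, the earlier by the date in the library names and labelled as 24 months old, gave 16 libraries at 8 times of day, spaced by 3 h between Zt 0.5 and Zt 21.5 (Zeitgeber time, the hours since lights-on), and the second collection, labelled as 12 months old, gave 8 libraries at Zt 0.5, 6.5, 12.5 and 18.5, with 2 fish at each time in both. Age and the date in the library names, whose meaning the labels do not state, go together and cannot be told apart.

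DBP is an activator of the PAR bZIP family, together with TEF and HLF, and NFIL3 (also called E4BP4) is a bZIP repressor that binds the same DNA element, the D-box. In mammals *Dbp* is driven by the CLOCK and BMAL1 proteins through E-boxes, whereas *Nfil3* is held down by the REV-ERB receptors at ROR elements, so the activator and the repressor can occupy the D-box at different times of day. In zebrafish D-boxes also carry the light response of *per2* and of photolyase genes.

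Values are given as CPM, counts of a gene scaled to the total count of its library. The total count ranged from 25736825 to 36066368. At this depth the members had between 22 and 11203 counts in a library. Both fish of every time differed by more than counting error over all genes (chi-square per degree of freedom from 13.7 to 402), and the widest pair held the 1 library that stood apart. In replicate A of Zt 9.5 in the first collection, 38.9% of 16560 genes were below 0.5 times their median over the collection, against 0.658 to 5.27% in its other libraries. The epidermal markers *krt5* and *epcam* summed to 25905 CPM in that library, within the 16137 to 40587 CPM of the collection. The sums of the dermal pair *col1a2* and *dcn* (355 CPM) and of the pigment cell pair *pnp4a* and *ltk* (12.4 CPM) were the lowest of all 24 libraries. Gene by gene this held for *dcn* and *ltk* but not for *col1a2* and *pnp4a*. *pnp4a* was at 0.87 CPM or less in every library, so the pigment sum was nearly all *ltk*. The marker sums hold only part of the genes planned for each type, and no erythrocyte marker was used. The muscle genes *ckma*, *ckmb* and *mylpfa* summed to 7491 CPM, within the 1985 to 9814 CPM of the collection. Fewer cells of a type and less RNA per cell cannot be told apart in such samples. Fits, ratios and correlations of the members that include this library are given with it, and the main ones also without it.

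The activator *dbpb* was a night gene. In the fish of the first collection it was at 65.8 and 93.1 CPM (Zt 0.5), 25.4 and 22.0 (Zt 3.5), 9.97 and 11.6 (Zt 6.5), 6.29 and 7.05 (Zt 9.5), 4.28 and 6.63 (Zt 12.5), 74.4 and 28.6 (Zt 15.5), 344 and 260 (Zt 18.5), and 312 and 182 (Zt 21.5). In the fish of the second collection it was at 109 and 109 CPM (Zt 0.5), 9.43 and 11.5 (Zt 6.5), 7.78 and 9.72 (Zt 12.5), and 384 and 386 (Zt 18.5). It thus went down through the whole light phase, was lowest around lights-off and was already higher in both fish 3 h later. The means of the first collection were 302 ± 59.8 CPM at Zt 18.5 and 5.46 ± 1.66 CPM at Zt 12.5 (SD, n = 2 each), a ratio of 55.3, and the ratio between the same times of the second collection was 44.0. Along the order of the first-collection means, the fish of Zt 18.5 and 21.5, of Zt 0.5 and 15.5 and of Zt 9.5 and 12.5 overlapped, whereas the other 4 neighbours in that order did not.

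The repressor *nfil3-5* was a day gene. Its values in the first collection were 12.3 and 10.2 CPM (Zt 0.5), 21.8 and 29.6 (Zt 3.5), 30.7 and 38.5 (Zt 6.5), 2.37 and 103 (Zt 9.5), 41.1 and 24.9 (Zt 12.5), 5.83 and 5.49 (Zt 15.5), 1.38 and 1.80 (Zt 18.5), and 1.70 and 3.81 (Zt 21.5). Its values in the second collection were 8.05 and 7.77 CPM (Zt 0.5), 90.0 and 92.3 (Zt 6.5), 24.6 and 28.2 (Zt 12.5), and 2.00 and 2.19 (Zt 18.5). In the first collection it went up from lights-on, reached its highest mean at Zt 9.5 (52.7 ± 71.1 CPM, SD, n = 2) and had its lowest at Zt 18.5, and the value of 2.37 CPM came from the library that stood apart. The ratio of highest to lowest mean was 33.1 with that library and 43.5 in the second collection, where the highest mean was at Zt 6.5. Without that library the ratio was 64.7, with the single fish left at Zt 9.5 as the highest value. From Zt 3.5 to 12.5 the first-collection fish of neighbouring means overlapped, so that the order of these 4 times was not resolved.

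The Ohnolog partner ENSXMAG00000019530 had a later day peak. Its values in the first collection were 1.88 and 2.86 CPM (Zt 0.5), 4.69 and 4.93 (Zt 3.5), 7.06 and 7.74 (Zt 6.5), 0.855 and 33.5 (Zt 9.5), 30.6 and 21.2 (Zt 12.5), 11.0 and 7.20 (Zt 15.5), 1.94 and 3.48 (Zt 18.5), and 1.70 and 2.92 (Zt 21.5). Its values in the second collection were 2.95 and 1.28 CPM (Zt 0.5), 13.2 and 15.0 (Zt 6.5), 20.4 and 23.2 (Zt 12.5), and 2.29 and 2.42 (Zt 18.5). The highest mean was at Zt 12.5 in both collections, at 25.9 ± 6.61 CPM in the first collection and 21.8 ± 1.97 CPM in the second collection (SD, n = 2 each), and without the library that stood apart the first-collection maximum was the single fish at Zt 9.5. From Zt 18.5 to 0.5 the values of the first collection lay between 1.70 and 3.48 CPM and their order was not resolved.

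**Figure D1:**
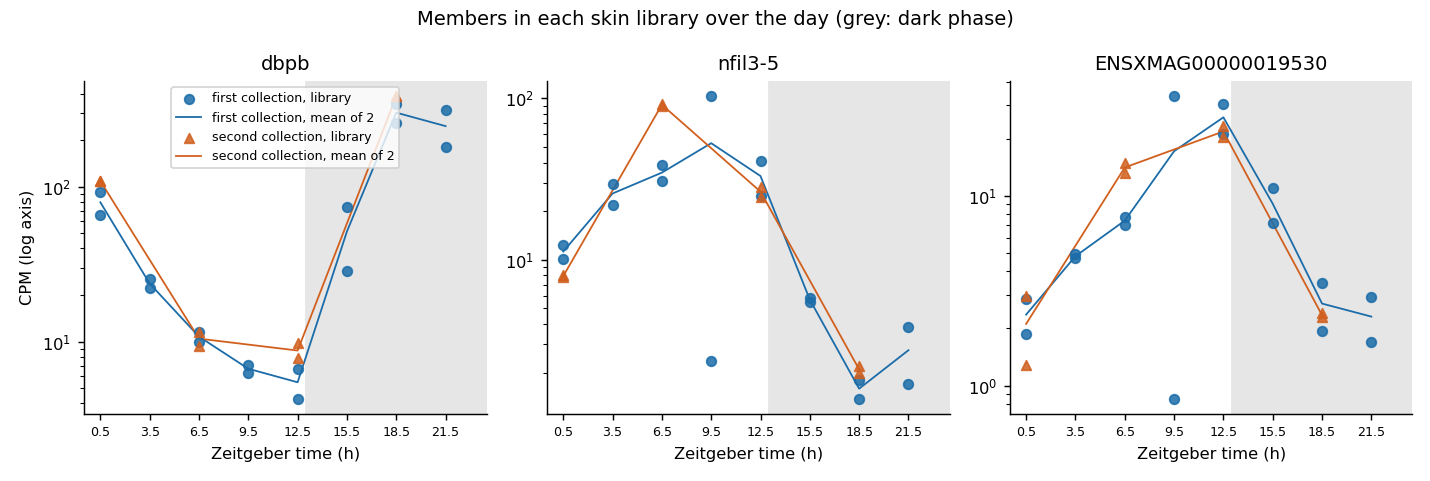
CPM of the 3 genes on a log axis against Zeitgeber time, with a circle for each library of the first collection, a triangle for each library of the second collection and lines through the means of 2 fish. *dbpb* was high at Zt 18.5 (344 and 260 CPM in the first collection, 384 and 386 in the second collection), when *nfil3-5* was at 2.19 CPM or less, and the lone low circles at Zt 9.5 (2.37 and 0.855 CPM) are the library that stood apart.

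A 24-h cosine was fitted to the counts of each gene with edgeR's quasi-likelihood model, and p-values were adjusted over all genes tested by the Benjamini-Hochberg method, with a call at an adjusted p under 0.05. Such a call was made for 1.50% of genes in the first collection, 36.6% in the second collection and 15.5% with both collections, and the 3 members were called in each of the 3 fits. *dbpb* had a log2 amplitude (the height of the fitted peak above the fitted mean) of 2.73 in the first collection (adjusted p = 2.85e-05) and 3.15 in the second collection (0.00028, edgeR), with fitted peaks at Zt 20.8 and 20.8. *nfil3-5* had amplitudes of 2.39 in the first collection (0.00671, edgeR) and 2.89 in the second collection (2.94e-07), with peaks at Zt 7.67 and 7.68. ENSXMAG00000019530 had amplitudes of 1.70 in the first collection (adjusted p = 0.0138, edgeR) and 2.17 in the second collection (0.000115), with peaks at Zt 10.7 and 10.0. By size of amplitude they were at places 9, 18 and 64 of 19212 genes in the first collection and 4, 8 and 59 of 18995 in the second collection, where the median gene had 0.28 and 0.30.

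Without the library that stood apart, the first-collection amplitudes were 2.87 for *dbpb*, 2.57 for *nfil3-5* and 1.88 for ENSXMAG00000019530, the peaks were at Zt 20.9, 7.77 and 10.6, and the edgeR adjusted p-values were 4.98e-05, 0.00011 and 5.18e-05. An exact permutation test on the 8 means of the first collection, which asks for 1 rise and 1 fall over the day, gave p = 0.00675 for *dbpb* and p = 0.0127 for both *nfil3-5* and its partner, one-sided, over the 40320 orders of the means. Without the library that stood apart the exact p was 0.00675 for the partner, with its highest mean at Zt 9.5, and the same as before for the other two. Each of the 3 genes had 1 local maximum along the 8 means.

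The timing of activator and repressors was opposite. The fitted peak of *dbpb* came 13.2 h after that of *nfil3-5* in the first collection and 13.1 h after it in the second collection, and when each library was left out in turn the distance lay between 12.9 and 13.3 h in the first collection and between 12.7 and 13.4 h in the second collection. It came 10.1 h after the peak of ENSXMAG00000019530 in the first collection (9.78 to 10.3 h) and 10.8 h after it in the second collection (10.4 to 11.1 h). The jackknife SE, computed from the left-out fits, was 0.326 and 0.581 h for the distance to *nfil3-5* in the first and second collections. For the distance to ENSXMAG00000019530 it was 0.522 and 0.547 h. Across libraries, log2(CPM + 0.5) of *dbpb* and *nfil3-5* had a Pearson's r of -0.76 in the first collection (n = 16, permutation p adjusted over 6 tests 0.00351) and -0.93 in the second collection (n = 8, exact permutation p adjusted 0.00868), with Spearman's rho of -0.74 (adjusted permutation p = 0.00453) and -0.76 (adjusted exact p = 0.0441). For *dbpb* and ENSXMAG00000019530 r was -0.60 in the first collection (adjusted permutation p = 0.0217) and -0.92 in the second collection (adjusted exact permutation p = 0.022), with rho of -0.54 and -0.79 (adjusted permutation p = 0.0441 each). The 2 repressors went the same way, with r of 0.75 in the first collection (adjusted permutation p = 0.00351) and 0.80 in the second collection (adjusted exact permutation p = 0.0273), with rho of 0.74 (adjusted permutation p = 0.00453) and 0.74 (adjusted exact permutation p = 0.0458). Fish of the same time share their time of day, so these libraries are not spread evenly over the values. Without the 2 libraries farthest from the median of the first gene of a pair, r kept its sign and lay between -0.97 and -0.50 for *dbpb* with either repressor and was 0.64 and 0.82 for the repressors, and without the library that stood apart the first-collection r values were -0.92, -0.83 and 0.72 and the rho values -0.93, -0.81 and 0.72.

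The ratio of 2 genes within 1 library does not depend on how libraries are scaled, and it was read only over time, since transcript lengths were not used here. In the first collection the counts of *dbpb* over those of *nfil3-5* were 5.35 and 9.15 (Zt 0.5), 1.16 and 0.744 (Zt 3.5), 0.325 and 0.300 (Zt 6.5), 2.66 and 0.0685 (Zt 9.5), 0.104 and 0.266 (Zt 12.5), 12.8 and 5.20 (Zt 15.5), 249 and 144 (Zt 18.5), and 184 and 47.7 (Zt 21.5). In the second collection they were 13.5 and 14.1 (Zt 0.5), 0.105 and 0.124 (Zt 6.5), 0.317 and 0.344 (Zt 12.5), and 192 and 176 (Zt 18.5). Every fish of Zt 15.5, 18.5, 21.5 and 0.5 had more counts of the activator, every fish of Zt 6.5 and 12.5 had more counts of the repressor, and at Zt 3.5 and 9.5 the 2 fish lay on either side of 1. The value of 2.66 at Zt 9.5 is the library that stood apart, and the other fish of that time was on the repressor side.

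A 24-h sine and cosine took 81.3% of the variance of the log2 ratio of *dbpb* over *nfil3-5* (0.5 counts added to both) in the first collection (permutation p = 7e-05, adjusted over 8 tests 0.00016) and 98.3% in the second collection (exact permutation p = 0.00317, adjusted 0.00363), with its peak at Zt 20.3 in both. For *dbpb* over ENSXMAG00000019530 the share was 78.6% in the first collection (permutation p = 8e-05, adjusted 0.00016) and 96.8% in the second collection (exact permutation p = 0.0317, adjusted 0.0317), and the counts of this ratio ranged from 0.14 at Zt 12.5 to 184 at Zt 21.5 in the first collection. Against the 2 repressors summed, *dbpb* had shares of 80.0% in the first collection (permutation p = 8e-05, adjusted 0.00016) and 98.3% in the second collection (exact permutation p = 0.00317, adjusted 0.00363). Without the library that stood apart the first-collection shares of the 3 ratios were 90.8, 91.3 and 91.2%, each at the smallest p that 100000 permutations can give (1e-05).

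**Figure D2:**
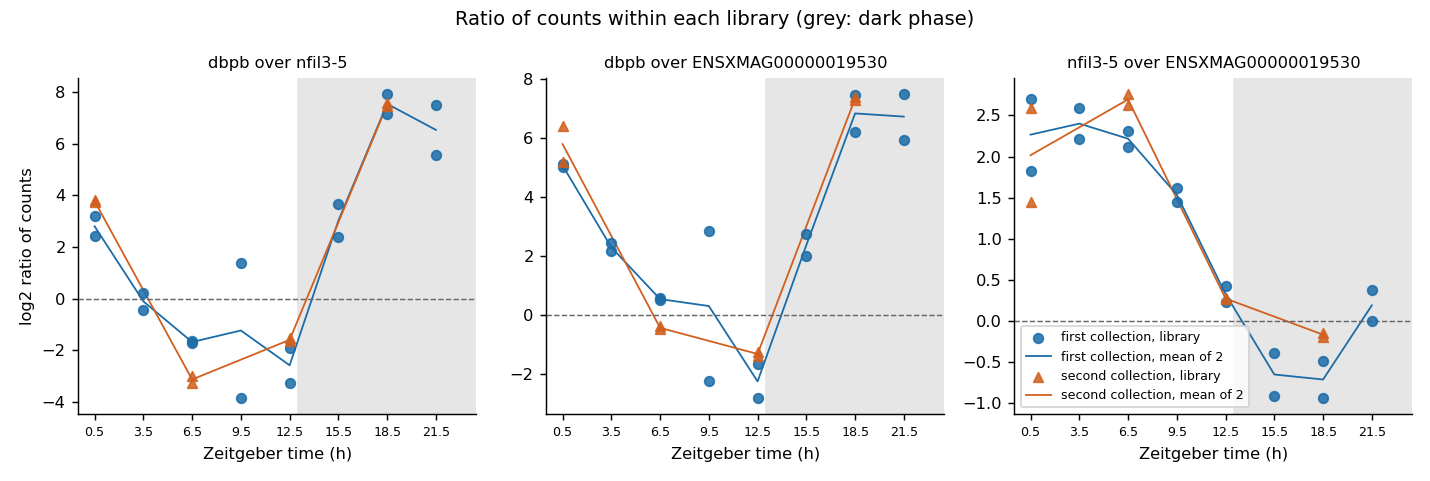
Log2 ratio of counts of 2 members within each library against Zeitgeber time, circles for the first collection and triangles for the second collection, lines through the means of 2 fish and a dashed line at equal counts. The lines of both *dbpb* ratios went below the dashed line within the light phase. They came back above it between the last time of the light phase and the first of the dark phase. The ratio of *nfil3-5* to ENSXMAG00000019530 went below the dashed line only in the dark phase. Its lowest values were 0.519 and 0.875 in the first and second collections before taking logs.

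The Ohnologs were shifted against each other. The fitted peak of ENSXMAG00000019530 came 3.08 h after that of *nfil3-5* in the first collection (2.83 to 3.40 h when each of 16 libraries was left out, the lowest without the library that stood apart) and 2.33 h after it in the second collection (2.19 to 2.55 h over 8). The jackknife SE of this distance was 0.552 h in the first collection and 0.277 h in the second. Without the library that stood apart, the single fish left at Zt 9.5 had the highest first-collection value of both copies. The counts of *nfil3-5* over those of its partner in the first collection were 6.55 and 3.56 (Zt 0.5), 4.66 and 6.01 (Zt 3.5), 4.35 and 4.98 (Zt 6.5), 2.77 and 3.08 (Zt 9.5), 1.34 and 1.17 (Zt 12.5), 0.531 and 0.763 (Zt 15.5), 0.714 and 0.519 (Zt 18.5), and 1.0 and 1.30 (Zt 21.5). In the second collection they were 2.73 and 6.08 (Zt 0.5), 6.80 and 6.17 (Zt 6.5), 1.20 and 1.22 (Zt 12.5), and 0.875 and 0.906 (Zt 18.5). The symbol-bearing copy thus gave the larger count in every fish of the light phase, and the partner gave the larger count in every fish of Zt 15.5 and 18.5. The 24-h share of variance of this log2 ratio was 92.8% in the first collection (permutation p = 1e-05, the smallest that 100000 permutations can give, adjusted 8e-05) and 94.2% in the second collection (exact permutation p = 0.00317, again the smallest possible there, adjusted 0.00363), with peaks at Zt 4.67 and 4.41. This test asks whether the ratio varied over the day, which the unequal amplitudes of the copies would also give. The distance between their peaks had no test of its own. In the library that stood apart both copies were far lower than in the other fish of Zt 9.5 (2.37 against 103 CPM and 0.855 against 33.5 CPM), yet their ratio, 2.77, was near the 3.08 of that fish, and the share without it was 92.7%. The sources used here do not say how reads that match both copies were counted, and its part in these ratios was not tested.

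Both collections sampled Zt 0.5, 6.5, 12.5 and 18.5, and the 6-h steps between these times were compared over the 16 libraries with the collection as a term (edgeR, Benjamini-Hochberg). These steps do not contain the library that stood apart. At Zt 6.5 over Zt 0.5, *dbpb* fell by 3.12 ± 0.19 on the log2 scale (SE, adjusted p = 6.03e-07, edgeR), a direction called for 5.50% of genes, while *nfil3-5* rose by 2.64 ± 0.34 (adjusted p = 0.00141) and ENSXMAG00000019530 by 2.25 ± 0.31 (0.00195), a direction called for 6.79%. At Zt 12.5 over Zt 6.5, where 0.220% of genes were called, none of the 3 passed: the log2 changes were -0.68 ± 0.18 for *dbpb*, -1.08 ± 0.32 for *nfil3-5* and 1.11 ± 0.29 for its partner (edgeR adjusted p = 0.194, 0.232 and 0.19; unadjusted p from 0.00169 to 0.00412). DESeq2, the other tool run, gave adjusted p-values under 0.05 for *dbpb* (0.0279) and ENSXMAG00000019530 (0.0282) at this step.

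At Zt 18.5 over Zt 12.5 the members had their largest steps. *dbpb* rose by 5.62 ± 0.21 (adjusted p = 8.46e-10, edgeR; 1.86% of genes were called higher), and *nfil3-5* and ENSXMAG00000019530 fell by 4.03 ± 0.37 (1.92e-05) and 3.22 ± 0.31 (4.51e-05; 1.92% were called lower). At Zt 0.5 over Zt 18.5, *dbpb* fell by 1.81 ± 0.18 (adjusted p = 0.000135, edgeR), 1 of the 18 genes or 0.0921% called lower, and *nfil3-5* rose by 2.47 ± 0.35 (0.00314; 0.425% were called higher), whereas ENSXMAG00000019530 had a log2 change of -0.13 ± 0.31 (0.928). The difference of the copies at this step was not tested by itself, and the test of their ratio over the day is given above.

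**Figure D3:**
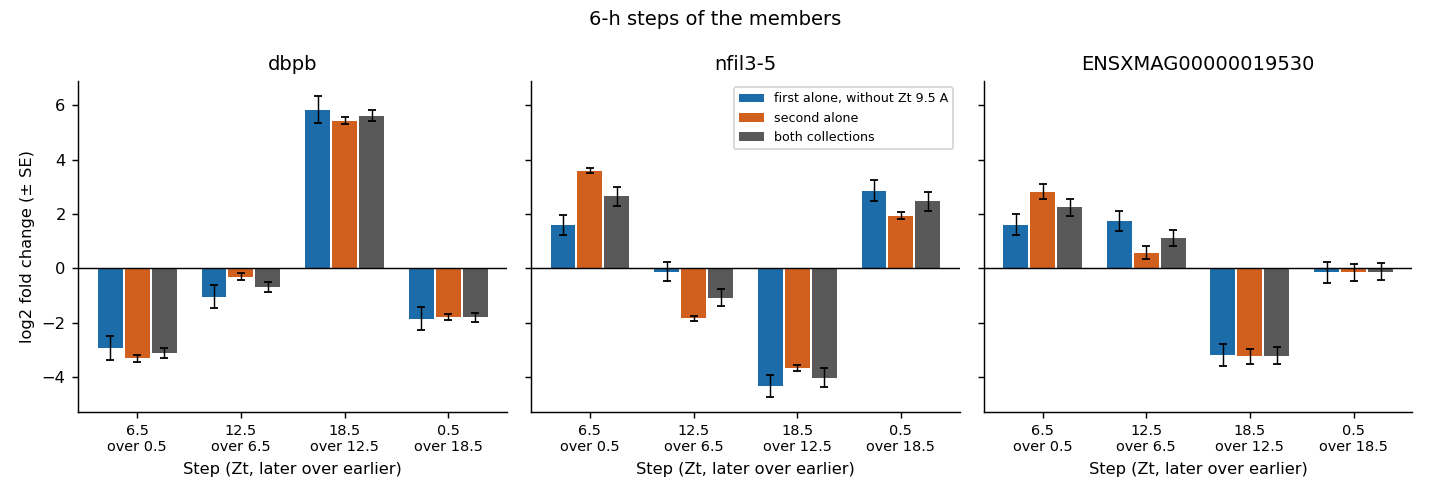
Log2 fold change of each member over 4 steps of 6 h, later over earlier time, with bars for the first collection alone without the library that stood apart, the second collection alone and both collections, and SE as error bars. *dbpb* had its largest bar at Zt 18.5 over Zt 12.5 (5.62 with both collections), where *nfil3-5* (-4.03) and ENSXMAG00000019530 (-3.22) pointed the other way.

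In each collection alone the directions of the called steps were the same. In the second collection, *nfil3-5* also fell at Zt 12.5 over Zt 6.5, by 1.85 (adjusted p = 9.55e-05, edgeR). In that collection alone 2871 of 18995 genes were called at this step, in either direction. In the first collection alone only *dbpb* at Zt 6.5 over Zt 0.5 and at Zt 18.5 over Zt 12.5 was called by edgeR when all 16 libraries were fitted, and without the library that stood apart, a fit chosen after its values were seen, 8 of the 12 steps were called. These included a rise of ENSXMAG00000019530 by 1.75 at Zt 12.5 over Zt 6.5 (adjusted p = 0.0311), where *nfil3-5* had -0.13 (0.876), while the fall of *dbpb* by 1.86 at Zt 0.5 over Zt 18.5 missed the threshold (0.295). Of all 19653 genes tested in that fit, 1845 were called at Zt 6.5 over Zt 0.5 and 1090 at Zt 12.5 over Zt 6.5. Only 30 were called at Zt 18.5 over Zt 12.5 and 14 at Zt 0.5 over Zt 18.5.

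The daily courses of the 2 collections were then compared. The fitted peaks in the first and second collections were 0.0456 h apart for *dbpb*, 0.00841 h for *nfil3-5* and 0.734 h for ENSXMAG00000019530, against a median of 0.771 h and a highest value of 5.33 h over the 32 clock-related genes listed further on. The distances of the members are far below the sampling intervals, 3 h in the first collection and 6 h in the second. No error was computed for them, so their exact size is not resolved. They include the library that stood apart. Without it the first-collection peaks were at Zt 20.88, 7.77 and 10.60, against Zt 20.77, 7.68 and 10.01 in the second collection. The test for a difference in the 24-h cosine between collections called 0% of 19783 genes by edgeR (0 genes, with 2435 at an unadjusted p under 0.05, and 428 by DESeq2), and the members had adjusted p-values from 0.838 to 0.913 by edgeR. Without the library that stood apart, the edgeR adjusted p-values were 0.927 for *dbpb*, 0.853 for *nfil3-5* and 0.666 for ENSXMAG00000019530. A p that misses the threshold does not show that the courses were alike. With each of the 4 shared times as a level of its own, 11.8% of genes had a time by collection interaction by edgeR, and *nfil3-5* was among them (adjusted p = 0.0114), while *dbpb* (0.362) and its partner (0.232) were not. Leaving out replicate A of Zt 12.5 in the second collection ended the call of *nfil3-5* (adjusted p = 0.0531, edgeR).

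Contrasts at each time were chosen after this interaction was seen. At Zt 6.5 *nfil3-5* was at 30.7 and 38.5 CPM in the first collection against 90.0 and 92.3 CPM in the second collection, with no overlap, a log2 difference of -1.41 ± 0.22 (SE, adjusted p = 0.00158, edgeR; 26.1% of genes differed at this time). The partner had 7.06 and 7.74 CPM in the first collection against 13.2 and 15.0 CPM in the second collection, also with no overlap, but -0.94 ± 0.34 missed the threshold (0.0597). At Zt 12.5 *dbpb* was lower in the first collection, at 4.28 and 6.63 CPM against 7.78 and 9.72 CPM in the second collection (-0.73 ± 0.23, adjusted p = 0.0408, edgeR; 23.4% of genes differed). No member passed at Zt 0.5 or at Zt 18.5, where 31.0 and 22.6% of genes differed. Averaged over the 4 times, *dbpb* was 0.36 ± 0.12 lower on the log2 scale in the first collection than in the second collection (adjusted p = 0.0284, edgeR), a call that ended when replicate B of Zt 12.5 or of Zt 0.5 in the second collection or replicate C of Zt 0.5 in the first collection was left out (0.063, 0.0581 and 0.0563), and *nfil3-5* (-0.23 ± 0.24) and ENSXMAG00000019530 (-0.09 ± 0.21) did not pass. Such a level difference was called for 45.2% of genes. Markers of other cell types also differed between collections over the same 4 times (edgeR). The dermal *col1a2* (-1.80) and *dcn* (-0.62), the pigment gene *ltk* (-0.60) and the epidermal *krt5* (-0.47) were lower on the log2 scale in the first collection, while the epidermal *epcam* (0.50) and the muscle genes *ckma* (0.73) and *mylpfa* (1.76) were higher, and *pnp4a* and the muscle gene *ckmb* were not called (adjusted p = 0.584 and 0.349). The dermal pair summed to 355 to 3942 CPM in the first collection and 3262 to 6902 CPM in the second collection, and the 3 muscle genes had a median sum of 4193 CPM in the first collection and 3109 CPM in the second collection, with highest sums of 9814 and 4163 CPM. The part of these cell types in the differences of the members was not tested. The 2 fish of a time lay up to a ratio of 2.61 apart for *dbpb*, 43.5 for *nfil3-5* and 39.2 for ENSXMAG00000019530 in the first collection (2.25 and 1.80 for the repressors without Zt 9.5), and up to 1.25, 1.15 and 2.31 in the second collection. The second collection was thus the tighter for *dbpb* and *nfil3-5*. For ENSXMAG00000019530 the 2.31 came from the pair at Zt 0.5, with 78 and 36 counts. At Zt 6.5, 12.5 and 18.5 this gene had ratios of 1.13, 1.14 and 1.06 in the second collection. In the first collection they were 1.10, 1.44 and 1.80 at these times.

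Other genes of the 2 families were fixed as a list together with the members. Of 5 PAR bZIP genes, *dbpb* counted among them, 4 had a called 24-h cosine with both collections, as 15.5% of all genes tested had. The median log2 amplitude of the 5 was 0.71 against 0.25 over all genes tested. *tefb*, a TEF copy, was nearest to *dbpb*, with a peak at Zt 22.2 and an amplitude of 2.07 (adjusted p = 1.95e-08, edgeR). *tefa* peaked at Zt 23.5 with 0.46 (0.00011), and *hlfa* peaked by day, at Zt 8.47 with 0.71 (6.82e-05), on the side of the repressors. The second HLF gene (ENSXMAG00000025280) had 0.32 and was not called (0.256). All 4 *nfil3* genes were called, the members *nfil3-5* and ENSXMAG00000019530 counted among them. *nfil3* (ENSXMAG00000019943) peaked at Zt 11.2 with an amplitude of 1.16 (1.64e-07, edgeR), close to ENSXMAG00000019530, and *nfil3-6* (ENSXMAG00000019527) at Zt 2.43 with 1.26 (0.0044). The peak of *nfil3-6* was at Zt 1.38 in the first collection and 5.43 in the second collection, the widest gap of this family, and in the library that stood apart it was at 1.90 CPM against 13.2 CPM in the other fish of Zt 9.5, while *nfil3* was at 8.20 against 10.5 CPM.

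The regulators known to act on the D-box genes were placed as follows. Of 6 genes of the E-box activators all were called with both collections, against 15.5% of all genes tested, and 5 in the first collection alone, against 1.50%. *arntl1a*, which encodes BMAL1, peaked at Zt 9.54 with an amplitude of 1.96, between the 2 repressor copies, as did *clocka* at Zt 9.52, *clockb* at Zt 10.3 and *npas2* at Zt 10.2, whereas 1 *arntl2* gene (ENSXMAG00000008892) peaked at Zt 15.7. Of 8 Rev-erb and ROR genes 6 were called in either fit, against the same 15.5 and 1.50% of all genes tested. The Rev-erb genes, which encode repressors at ROR elements, peaked from Zt 16.2 to 0.291 (*nr1d4b* at Zt 16.2, *nr1d4a* at Zt 18.6, *nr1d1* at Zt 20.4, *nr1d2a* at Zt 21.7 and *nr1d2b* at Zt 0.291), hence on the *dbpb* side of the day, and *rorca*, an ROR activator, peaked at Zt 6.08, before *nfil3-5*. *rora* and *rorb* were not called (edgeR adjusted p = 0.131 and 0.0672).

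Genes with D-boxes known in mammals or zebrafish fell on both sides. All 9 were called with both collections (15.5% of all genes tested), 9 in the second collection (36.6%) and 6 in the first (1.50%). In the first, ENSXMAG00000006651, *cry1ba* and *zgc:66475* missed the threshold (edgeR adjusted p = 0.0589, 0.0593 and 0.0549), and *dbpa* and *cry5* were not analysed here. *per1b* (Zt 21.8, amplitude 2.66), *per3* (Zt 0.282, amplitude 2.02) and *cry1ab* (Zt 0.27, amplitude 1.33) peaked 1.01, 3.47 and 3.46 h after *dbpb*. The other 6, which are the light-linked *per2*, its paralog ENSXMAG00000006651, the Ohnolog partner of *cry1ab* (ENSXMAG00000017466), *cry1ba*, *cry-dash* and the photolyase *zgc:66475*, peaked between Zt 4.30 and 8.96 with both collections fitted together. The peaks of several of them differed between collections: *per2* was at Zt 4.24 in the first and 9.56 in the second collection, the widest gap of the 32 genes, ENSXMAG00000006651 at Zt 4.16 and 8.00, and *cry-dash* at Zt 3.69 and 6.61. By edgeR no gene had a called 24-h cosine difference between collections, and the DESeq2 calls were not looked up for these genes. At Zt 18.5 over Zt 12.5, where 1.86% of all genes were called higher and 1.92% lower, 3 of these 9 genes rose and 4 fell by edgeR, while 3 of 5 PAR bZIP genes rose with 1 falling and 3 of 4 *nfil3* genes fell with none rising. The PAR bZIP and *nfil3* counts include *dbpb* among the rising genes and *nfil3-5* and ENSXMAG00000019530 among the falling ones. Without the library that stood apart, the peaks of the 32 genes with both collections moved by 0.871 h at most (*rora*) and 0.0641 h in the median. The 29 called genes were called again with *rorb* added (adjusted p = 0.0309, edgeR), as were 5115 of all 20793 genes tested. In the first collection all 9 D-box genes were then called, and 716 of all 19653 genes tested. No link between the members and any of the listed genes was tested.

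**Figure D4:**
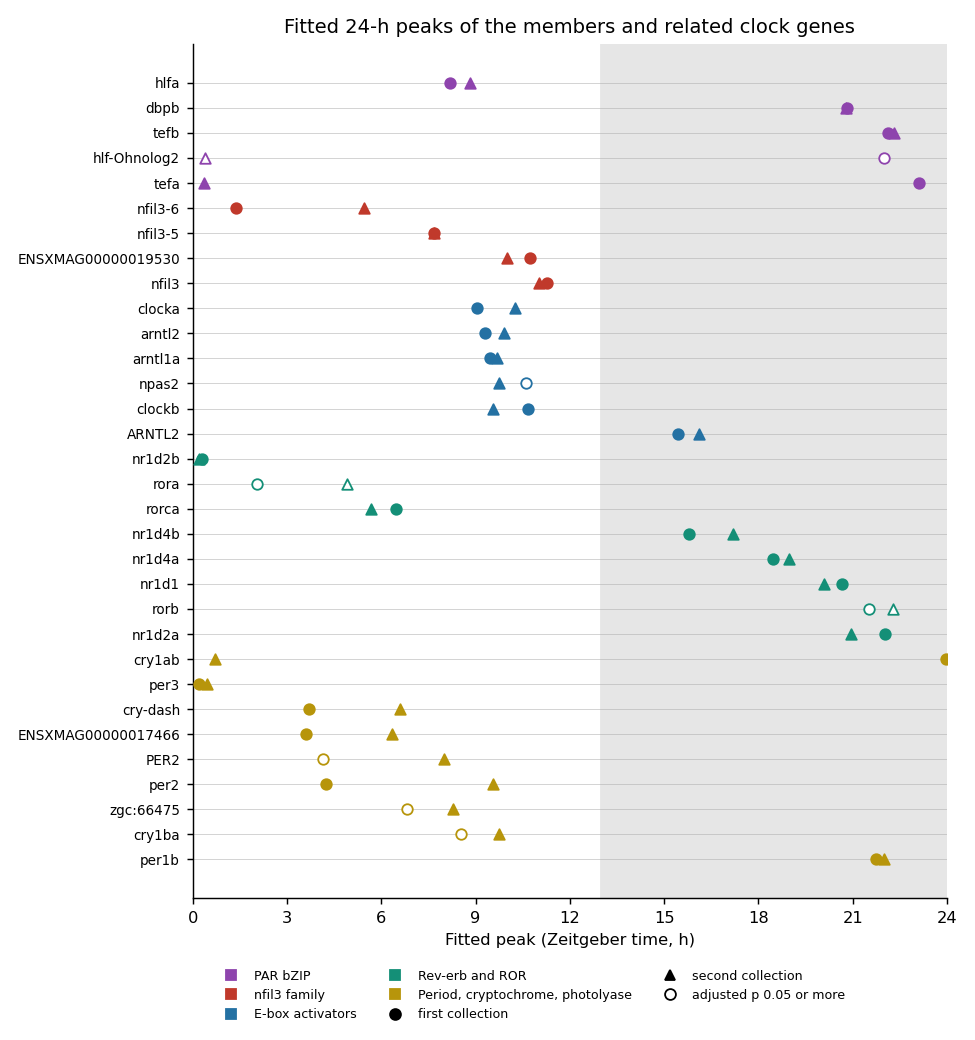
Fitted 24-h peak of 32 clock-related genes on the Zeitgeber axis, circles for the first collection and triangles for the second collection, filled where the edgeR adjusted p was under 0.05, coloured by list. *dbpb* (Zt 20.8 and 20.8) lies with *tefb*, *per1b* and *nr1d1* in the dark phase. *nfil3-5* (Zt 7.67 and 7.68) and ENSXMAG00000019530 (Zt 10.7 and 10.0) lie with most E-box activators in the light phase. The exception is the *arntl2* gene ENSXMAG00000008892, at Zt 15.4 and 16.1.

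Likeness over the libraries was measured by Pearson's r of log2(CPM + 0.5), centred within collection, over 24 libraries and against 16698 other genes with a mean of at least 1 CPM. These libraries share time of day and depth, and r is given as a description. The 5 genes most like *dbpb* were *nr1d1* (r = 0.98), *per1b* (0.95), ENSXMAG00000026233, for which no name was found (0.95), *tefb* (0.93) and *cipcb* (0.91). From the other end of the same order, *nfil3-5* was at place 13 (r = -0.82) and ENSXMAG00000019530 at place 62 (-0.72), and *arntl1a* was last (-0.92). Most like *nfil3-5* were *TTC39B* (0.92), ENSXMAG00000019296 (0.91), *si:ch1073-440b2.1* (0.89), *LONRF3* (0.88) and *cry1ba* (0.87), and its own Ohnolog came at place 15 (0.77). From the bottom of that order *nr1d1* was the last (-0.86) and *dbpb* was at place 2. Most like ENSXMAG00000019530 were *npas2* (0.95), *tbl1x* (0.91), *clockb* (0.89), *cdkn1d* (0.89) and *cry1ba* (0.88), with *nfil3-5* at place 29, *dbpb* at place 8 from the bottom, and *creg2* last (-0.80). Without the library that stood apart, *dbpb* had r of -0.93 with *nfil3-5* and -0.87 with ENSXMAG00000019530, and 4, 5 and 3 of the 5 genes most like *dbpb*, *nfil3-5* and ENSXMAG00000019530 were again among the 5 most like. *cipcb* went to place 7 for *dbpb*, *cdkn1d* and *cry1ba* went to places 8 and 9 for ENSXMAG00000019530, and *creg2* was no longer last. The members moved too. ENSXMAG00000019530 went from place 15 to 31 for *nfil3-5*, and *nfil3-5* from place 29 to 53 for ENSXMAG00000019530. Counted from the top of the order for *dbpb*, *nfil3-5* went from place 16686 to 16695 and ENSXMAG00000019530 from place 16637 to 16689, of 16698.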

How the data were processed

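RNA-Seq of skin was analysed from the deposited count table, which holds raw counts of 24209 genes in 24 libraries. Per the labels the authors used TopHat2 and featureCounts. The sources used here give neither their versions nor the treatment of multi-mapping reads and of strand. The table holds identifiers without names, and the names used were taken from tables of the study. Every column was matched to 1 sample by its label. Zt was set from the clock hour on the label and the light schedule.

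Fits used edgeR 4.0.16 (quasi-likelihood, TMM, filterByExpr; limma 3.58.1, R 4.3.3) over all genes with Benjamini-Hochberg adjustment at 0.05, and DESeq2 1.42.0 was the other tool. SE was taken from the fold change and F value. Permutations, 100000 or exact, were two-sided for correlations, and were run with scipy 1.17.1 and numpy 2.4.6 on pandas 2.3.3 tables (Python 3.11.15), with figures from matplotlib 3.10.9. The edgeR fits and the resampled permutation test of the ratios were tried on simulated data. The p-values of edgeR and DESeq2 set a change against the spread of single fish around the fitted model. In the cosine fits this spread also holds the departure of the time means from a cosine. In the steps over both collections it also holds differences of the time course between collections. Permutations for ratios and correlations shuffled single libraries, although the 2 fish of a time share that time. The rise-and-fall test used the order of the means, so the spread between fish did not enter it.

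The members, the clock lists (named in full) and the marker lists were chosen with earlier results of these data known. The other genes named are the 5 most like each member, and the last of each order was named after its value was seen. Alternatives were the tool, scaling, filter, title letter, collection and left-out libraries.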

Additional observations from a re-analysis of the deposited data

Results flagged for a closer look

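The daily course of *nfil3-5* differed between the fish of the first collection and those of the second collection at the 4 shared times, by a test of the time by collection interaction (edgeR adjusted p = 0.0114, 2 fish per time and collection). Such an interaction was called for 11.8% of all genes, and the test of a difference in the 24-h cosine gave this gene an adjusted p of 0.913 (edgeR). Of the 4 times, Zt 6.5 was called by itself, with 30.7 and 38.5 CPM in the first collection and 90.0 and 92.3 CPM in the second collection. At Zt 12.5 the fish overlapped, with 41.1 and 24.9 CPM in the first collection and 24.6 and 28.2 CPM in the second collection. At Zt 0.5 (12.3 and 10.2 against 8.05 and 7.77 CPM) and Zt 18.5 (1.38 and 1.80 against 2.00 and 2.19 CPM) the fish of the first collection did not overlap with those of the second, and neither difference was called (edgeR adjusted p = 0.0953 and 0.354). Age on the label and the date in the library names go together with the collection and cannot be told apart.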

How the results depend on the processing

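The fits, ratios and correlations of the members had 552 alternative values (tool, scaling, filter, title letter, collection, left-out libraries). Of these, 533 were counted as unchanged, 11 lost and 4 gained a call, 3 changed sign without a call and 1 moved. The value that moved was the distance between the Ohnologs' peaks, 2.33 h in the second collection alone. For fits and ratios, unchanged meant the same direction, where there was one, and the same side of the threshold. Correlations all counted as unchanged: they kept their sign, and no threshold was applied to them. The peak distance counted as unchanged within its jackknife SE, which came from the same left-out fits and so is a weak check. The causes were not tested.

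Over all genes, calls ranged widely. DESeq2 called 1692 genes against 289 by edgeR for the cosine in the first collection, 428 against 0 for its difference between collections, 4340 against 2302 for the time by collection interaction, and 3835, 265, 2270 and 372 against 2403, 43, 738 and 101 for the steps to Zt 6.5, 12.5, 18.5 and 0.5. The letters in the titles are not stated to pair fish, and with the letter as a replicate block the cosine in the first collection had 177 calls and the steps to Zt 6.5 and 18.5 had 1539 and 433. Steps fitted in the first collection alone had 263, 40, 14 and 4 calls to Zt 6.5, 12.5, 18.5 and 0.5. Without replicate A of Zt 9.5, a fit chosen after seeing the data, they had 1845, 1090, 30 and 14 to the same times. The second collection alone had 3484, 2871, 7035 and 1124 to these times.

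Leaving out 1 library gave 136 (without replicate C of Zt 0.5) to 1132 calls (without replicate B of Zt 9.5) for the cosine in the first collection, and 4605 (replicate B of Zt 12.5) to 6922 (replicate A of Zt 0.5) in the second. The step to Zt 6.5 had 320 to 3236 calls (lowest and highest without replicates C of Zt 6.5 and of Zt 12.5 in the first collection), and the step to Zt 12.5 had 20 (replicate A of Zt 6.5 in the second) to 109 (replicate D of Zt 18.5 in the first). The step to Zt 18.5 had 133 (replicate B of Zt 12.5 in the second) to 2669 calls (replicate C of Zt 12.5 in the first), and the step to Zt 0.5 had 48 to 292 (replicates A of Zt 18.5 in the second and D of Zt 18.5 in the first). The interaction had 210 (replicate A of Zt 12.5 in the second) to 6451 calls (replicate C of Zt 18.5 in the first), with an edgeR adjusted p of 0.00237 to 0.0531 for *nfil3-5* without the same libraries in reverse order. The cosine with both collections had 5115 calls without replicate A of Zt 9.5, against 3065.

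Of the members' steps, in the first collection alone those of *nfil3-5* (1.60) and ENSXMAG00000019530 (1.61) to Zt 6.5, of both (-4.32 and -3.20) to Zt 18.5, and of *dbpb* (-1.86) and *nfil3-5* (2.87) to Zt 0.5 missed the threshold. Without replicate A of Zt 9.5, *dbpb* to Zt 0.5 missed it again (-1.86) and ENSXMAG00000019530 to Zt 12.5 passed (1.75). At that step DESeq2 called *dbpb* (-0.69) and ENSXMAG00000019530 (1.09), and the second collection alone *nfil3-5* (-1.85). Leaving out 1 library, the step of ENSXMAG00000019530 to Zt 0.5 lay between -0.33 and 0.13, and the difference of *dbpb* between collections lay between -0.42 and -0.29, and that of ENSXMAG00000019530 between -0.22 and 0.021. With 2 fish a time and collection, such calls rest on single fish.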
